A study of Mus musculus with 45 samples.

Results

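The 10 genes described here are the receptor chains Il6ra, Il1r1 and Osmr, the transcription factor Stat3, the feedback inhibitors Socs1, Socs2, Socs3 and Cish, and the C/EBP factors Cebpb and Cebpd, taken by their symbols from the 23227 genes of the count tables. They were measured by polyA RNA sequencing in 45 liver libraries of wild-type C57BL/6J mice, all 24 weeks old and starved overnight, in 14 groups. The 16-week high-fat diet (HFD; S3282, Bioserve) was begun at 8 weeks of age, and its mice were sampled basal, at 15, 30, 60 or 120 min after 1 U/kg of intraperitoneal insulin, or on metformin. The 6-week HFD was begun at 18 weeks of age and was sampled on metformin and basal. Chow mice (Prolab Isopro RMH 3000) were sampled at the same insulin times as the 16-week HFD mice, on metformin and basal. Metformin was given in drinking water at 270 mg/kg/day of lean body mass, starting at 8 or 18 weeks of age. Each group held 3 libraries, except for 6 at 30 min of insulin on the 16-week HFD. The series describes at least 3 mice per group, and the labels tie no library to a named animal, so p-values measure the spread between these libraries. The sex of the mice is not given in the labels.

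Interleukin-6, oncostatin M and related cytokines bind receptor chains that share the gp130 subunit and activate JAK kinases, which phosphorylate STAT3; STAT3 then enters the nucleus and, with C/EBPβ and C/EBPδ, switches on acute phase genes in hepatocytes. Growth hormone and prolactin act in the same way through STAT5. SOCS proteins and CIS, the product of Cish, are induced by STATs and block the receptors or their JAKs, so their transcripts are widely read as traces of recent signalling, SOCS3 mainly of STAT3 and CIS and SOCS2 mainly of STAT5. In the liver this pathway is known for the acute phase response, for growth-hormone control of metabolism and for links between inflammation and insulin resistance.

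The tables held between 18.2 and 50.3 M counted reads per library. Counts were expressed as CPM, read counts normalised to the size of each library, scaled by the trimmed mean of M values, and all 10 members were among the 14067 genes that passed the count filter. The liver label held for its defining genes, since Alb was at 48800 to 117000 CPM in all 45 libraries. Some libraries stood apart. In all 9 metformin libraries longer transcripts had lower counts relative to the other libraries (Spearman correlation of the deviation with transcript length between -0.61 and -0.13), and the lowest value was that of library 1 of the 16-week HFD metformin group. Library 1 of the 16-week HFD basal group had -0.22, against 0.07 and 0.15 in the other two basal libraries of that diet. Within the 16-week HFD group at 30 min, libraries 1 to 3 had correlations with GC content of 0.19 to 0.22 and libraries 4 to 6 of -0.22 to -0.13. Summed markers of pancreatic acinar cells reached 20000 CPM in 1 library and were below 60 CPM in others. In basal livers they were at 10.1 to 189 CPM on the 16-week HFD and 13 to 151 CPM on the 6-week HFD, against 309 to 1920 CPM on chow, and chow livers on metformin had 8.53 to 110 CPM. These sums did not overlap between either diet and chow in basal livers, nor between metformin and basal on chow. Those of muscle reached 1720 CPM in 1 basal library of the 6-week HFD. Whether these differences had a part in the results was not tested beyond the values given with and without such libraries.

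Per kilobase of exon, Cebpb had the highest median level of the 10 genes (47.7 CPM per kb), followed by Stat3 (28.8), Il6ra (28.3) and Il1r1 (21.3). Cebpd stood at 5.80, Socs3 at 3.34, Socs2 at 2.27, Cish at 1.88 and Osmr at 1.13 CPM per kb. Socs1 was close to the limit of what these libraries could measure, at 0.219 CPM per kb and with 1 to 52 reads per library. The span between the lowest and the highest library was 46.0-fold for Cish, 26.7-fold for Socs3, 18.3-fold for Socs1 and 14.8-fold for Socs2. It was 10.3-fold for Il1r1, 5.89-fold for Cebpb, 4.33-fold for Il6ra, 4.25-fold for Osmr, 3.27-fold for Cebpd and 2.51-fold for Stat3. These spans pool the 14 groups, and that of Socs1 starts from a library with 1 read. Genomic positions are those of the mm9 gene models: Il6ra at chr3:89673246-89717084 (minus strand), Il1r1 at chr1:40281925-40373022 (plus), Osmr at chr15:6763577-6824313 (minus), Stat3 at chr11:100748124-100800825 (minus), Socs1 at chr16:10783902-10785629 (minus), Socs2 at chr10:94874124-94879491 (minus), Socs3 at chr11:117827401-117830680 (minus), Cish at chr9:107199020-107204292 (plus), Cebpb at chr2:167514415-167515918 (plus) and Cebpd at chr16:15887379-15889638 (plus). Counts covered whole gene models, exons of coding and untranslated sequence together. The protocol used does not mark strand, and the exon of Cebpd shares bases with the opposite-strand gene 2310008H04Rik, so its counts are uncertain. For Cebpb, 18.7% of the 40-base words of its transcript also occur in transcripts of other genes. The share was 14.01% for Cebpd, 9.88% for Cish, 5.45% for Socs2 and at most 2.67% (Il6ra) for the remaining members.

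**Figure D1:**
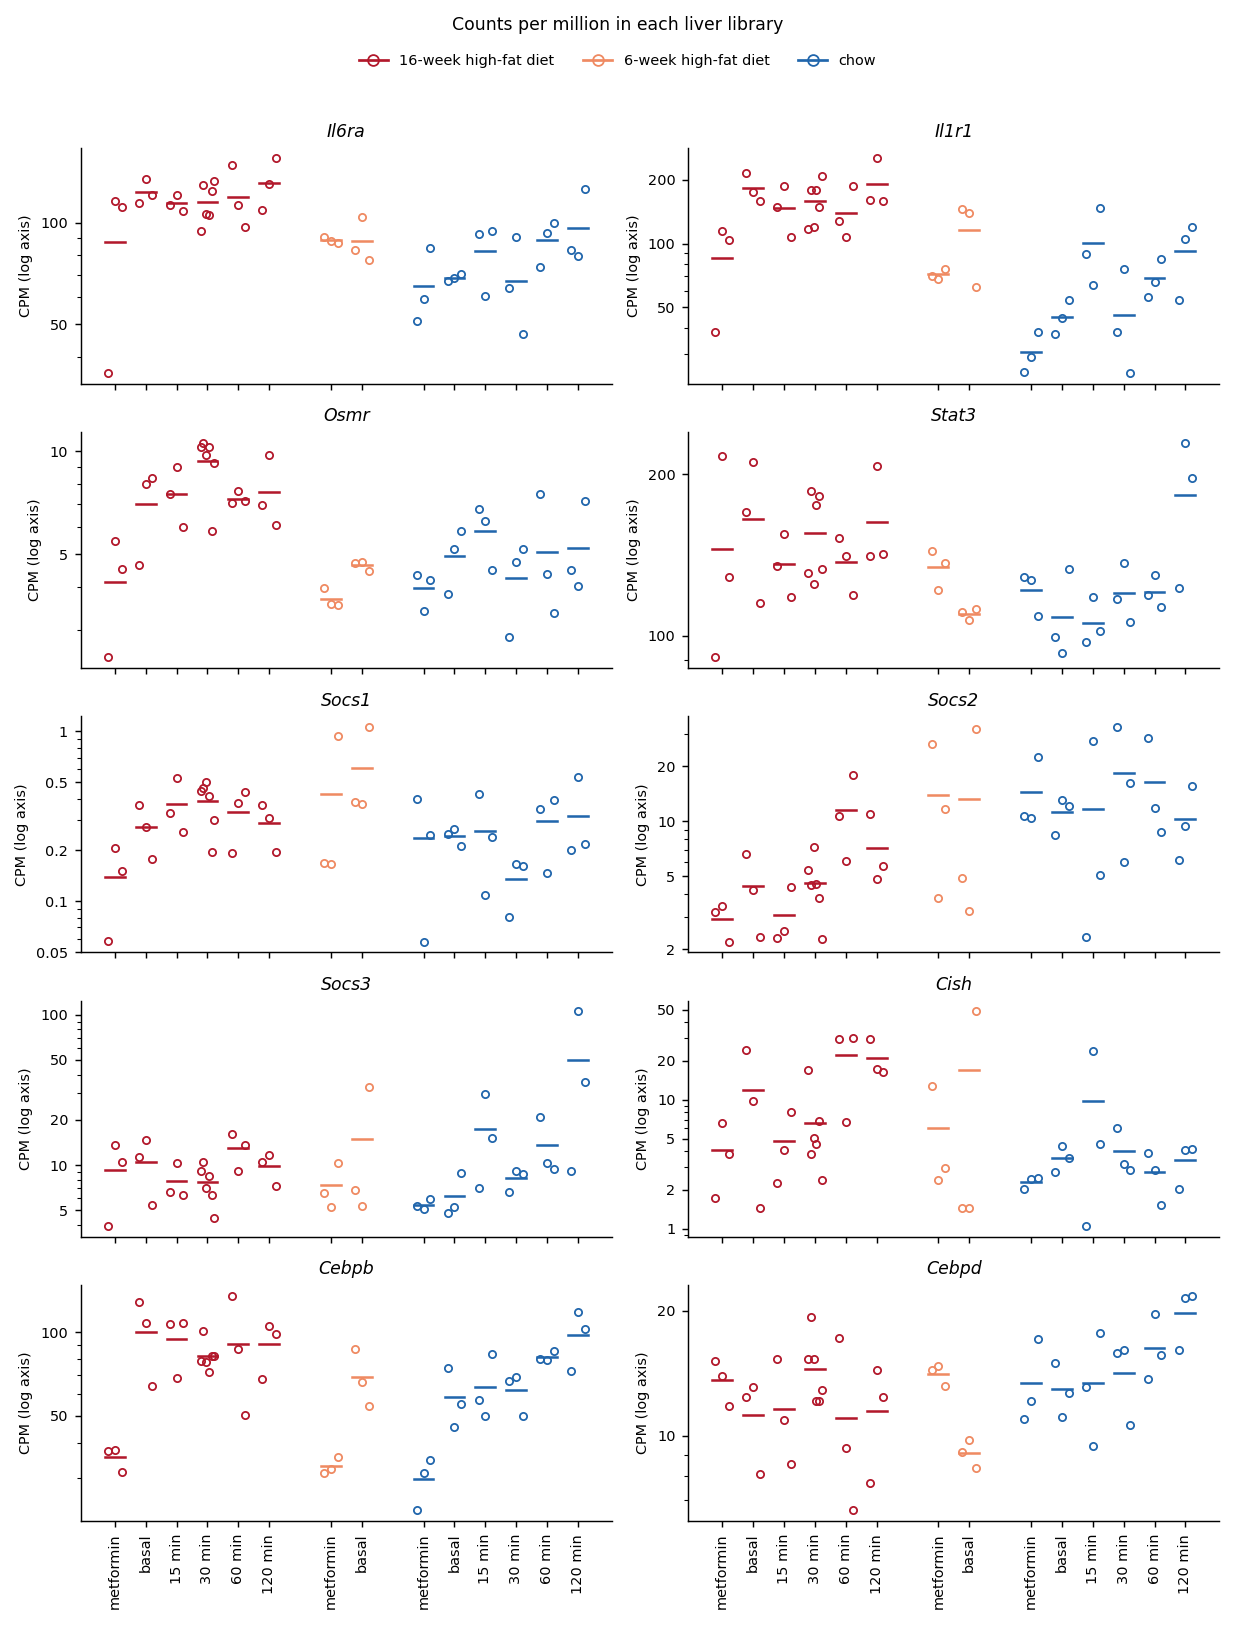
CPM (log axis) of the 10 genes in each of the 45 libraries (circles) with the mean of each group (bars), by diet and by metformin, basal and minutes after insulin. Cebpb is lowest in the 3 metformin groups. Mean Il1r1 is higher in the basal and insulin groups of the 16-week HFD than in any chow group. Cish, Socs2 and Socs3 hold single libraries far above the others of their group, such as 105 CPM of Socs3 at 120 min on chow.

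Of the 10 members, 9 differed somewhere among the 14 groups (edgeR, adjusted p between 5.83e-07 for Cebpb and 0.0466 for Cebpd), and Socs1 did not pass (adjusted p = 0.086). Over all genes tested the share was 77.4%. For the 16-week HFD against chow in the basal state, 4 of 10 members were called, all higher, beside 32.3% of all genes. For the mean over 5 time points, 8 of 10 were called, 6 higher and 2 lower, beside 63.0% of all genes. For the 6-week HFD against chow the count was 1 of 10, beside 11% of all genes, and for the 16-week against the 6-week HFD it was 0 of 10, beside 10.2% (edgeR; 4 at an unadjusted p under 0.05 and 0 with DESeq2). On metformin the 16-week HFD against chow gave 2 of 10, beside 20.4%, and the 6-week HFD against chow 0 of 10, beside 4.43% (1 at an unadjusted p under 0.05 and 1 with DESeq2, Il1r1 in both).

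Insulin against basal on chow called no member at 15, 30 or 60 min, where 1.13%, 0.0711% and 1.39% of all genes were called, and 2 of 10 at 120 min, beside 5.08%. At an unadjusted p under 0.05 there were 2 members at 15 min (Il1r1 and Socs3) and 0 at 30 and 60 min, and DESeq2 called 0 at these 3 times. On the 16-week HFD no member was called at 15, 30, 60 or 120 min, where 0.0%, 3.55%, 0.00711% and 0.0% of all genes were called (edgeR), and 0 members had an unadjusted p under 0.05 or a call with DESeq2. The insulin response differed by diet for no member at 15, 30, 60 or 120 min, with 0.00711%, 0.0%, 0.0% and 0.839% of all genes called (edgeR). At an unadjusted p under 0.05 there were 2 members at 15 min, 0 at 30 and 60 min, and 3 at 120 min, and DESeq2 called 0, 0, 0 and 1 (Socs3). Metformin against basal called 1 of 10 members on chow, beside 1.94% of all genes, 1 of 10 on the 6-week HFD, beside 3.17%, and 3 of 10 on the 16-week HFD, beside 28.4%. All were lower on metformin. For the mean over 3 diets it called 3 of 10, beside 31.2%. The metformin response differed by diet for no member (0 also at an unadjusted p under 0.05 and with DESeq2), with 0.0427% of all genes called for the 6-week HFD against chow and 4.96% for the 16-week HFD against chow. Comparisons that use the same basal libraries share them, so their values are given side by side and are not counted as separate support.

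Il1r1, the signalling receptor of interleukin-1, had the largest diet difference of the 3 receptor chains. It was at 215, 175 and 158 CPM in the 3 basal livers of the 16-week HFD, against 37.3, 44.3 and 54.0 CPM in basal chow livers. The 6-week HFD livers had 145, 140 and 62.5 CPM. Both HFD groups lay above chow without overlap, and library 3 of the 6-week HFD stood close to the chow range. The log2 difference from chow was 2.02 ± 0.38 (SE) for the 16-week HFD (edgeR, adjusted p = 0.000123) and 1.36 ± 0.38 for the 6-week HFD (adjusted p = 0.0158). The first held under each alternative run, between 1.88 and 2.18. The second was no longer called without library 1 or 2 of the 6-week HFD basal group (adjusted p = 0.0807 and 0.0704) or library 1 or 2 of the chow basal group (0.0681 and 0.0638).

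The Il1r1 difference was also present over the insulin time course and under metformin. After insulin the 16-week HFD livers had 149, 187 and 107 CPM at 15 min, 117 to 208 CPM (median of 6, 163) at 30 min, 127, 107 and 186 CPM at 60 min, and 161, 252 and 158 CPM at 120 min. The chow livers had 89.3, 63.9 and 147 CPM at 15 min, 38.1, 75.8 and 24.5 CPM at 30 min, 55.8, 65.6 and 84.8 CPM at 60 min, and 53.9, 105 and 119 CPM at 120 min. At 15 min the diets overlapped; at the other times every HFD liver was above every chow liver. Relative to basal, the chow livers gave log2 differences of 1.15 ± 0.38 at 15 min and 1.04 ± 0.38 at 120 min that did not pass (edgeR, adjusted p = 0.166 and 0.106); without library 1 of the 120 min group the second passed (0.0427). Averaged over the 5 time points the log2 difference between the diets was 1.28 ± 0.16 (edgeR, adjusted p = 3.1e-08). On metformin the 16-week HFD livers had 38.3, 115 and 104 CPM and chow livers 24.8, 29.1 and 38.3 CPM, a log2 difference of 1.48 ± 0.38 (adjusted p = 0.00575), with ranges that met at 38.3 CPM. With only the groups compared in the fit it was 1.47 and not called (0.105). For the 6-week HFD on metformin the livers had 70.5, 68.1 and 76.1 CPM, and the log2 difference of 1.22 ± 0.38 from chow did not pass (adjusted p = 0.0561).

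Metformin was accompanied by lower Il1r1. The metformin and basal values on the 16-week HFD, given above, did not overlap, with a log2 difference of -1.09 ± 0.37 (edgeR, adjusted p = 0.0267). On the 6-week HFD the value was -0.69 ± 0.37 and on chow -0.55 ± 0.38, neither called, and the mean over 3 diets was -0.78 ± 0.22 (adjusted p = 0.00596). The 16-week HFD call was lost in several alternatives. Without library 1 of both groups the log2 difference was -0.59 ± 0.42 (adjusted p = 0.367), and the mean over diets was then -0.62 (adjusted p = 0.0308). It was -0.74 without only library 1 of the metformin group (adjusted p = 0.221), and -0.96 and -1.12 without library 1 or 2 of the basal group (0.077 and 0.0551). With only the groups compared in the fit it was -1.13 (0.173).

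Il6ra, the ligand-binding chain for interleukin-6 that is made mainly by hepatocytes in the liver, was higher after 16 weeks of HFD. The basal livers of that diet had 114, 135 and 121 CPM and the basal chow livers 66.9, 68.5 and 70.2 CPM, with no overlap, and the log2 difference was 0.85 ± 0.27 (edgeR, adjusted p = 0.0135). This call held in each alternative, at an adjusted p of 0.0499 or less. The 6-week HFD livers lay between, at 83.1, 104 and 77.6 CPM, also above chow without overlap, but the difference of 0.36 ± 0.26 did not pass (adjusted p = 0.426). Over the 5 time points the 16-week HFD exceeded chow by 0.59 ± 0.12 on the log2 scale (adjusted p = 3.64e-05). On metformin Il6ra was at 35.8, 116 and 111 CPM in 16-week HFD livers, so that 1 library was far below the others of its group. The log2 difference from basal was -0.49 ± 0.26 (adjusted p = 0.165). Same-numbered libraries deviated together in this comparison, and with the replicate block the difference was -0.65 (adjusted p = 0.0401). Without library 1 of both groups it was -0.16 ± 0.25 (adjusted p = 0.716).

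Osmr, the oncostatin M chain that pairs with gp130, had the lowest level per kilobase of the 3 receptor chains and was also higher over the time course of the longer diet. Basal livers had 4.66, 8.00 and 8.38 CPM on the 16-week HFD, 4.71, 4.74 and 4.47 CPM on the 6-week HFD, and 3.81, 5.18 and 5.84 CPM on chow. In the basal state the groups overlapped and no difference was called (16-week HFD against chow 0.52 ± 0.28, edgeR, adjusted p = 0.151), although without library 1 of the 16-week groups it was 0.74 (adjusted p = 0.0353). At 30 min of insulin the 6 livers on the 16-week HFD had 5.85 to 10.6 CPM (median 10.0), all above the chow livers at 2.86, 4.74 and 5.16 CPM. The mean over 5 time points was higher on the 16-week HFD by 0.62 ± 0.12 (adjusted p = 3.83e-05). On metformin Osmr was at 2.49, 5.46 and 4.51 CPM in 16-week HFD livers, 0.75 lower than basal on the log2 scale (log2 difference -0.75 ± 0.28, adjusted p = 0.0427), and the mean over 3 diets was -0.46 ± 0.16 (adjusted p = 0.0308). The 16-week call was lost without library 1 or 3 of the metformin group (adjusted p = 0.297 and 0.0555), without library 2 or 3 of the basal group (0.15 and 0.171), without library 1 of both groups (0.116), with length and GC trends removed (0.116), with no count filter (0.0546) and with only the groups compared (0.227). The mean over diets was lost without library 2 of chow metformin (0.062), library 1 of 16-week HFD metformin (0.0896), library 3 of chow basal (0.0664), or library 2 or 3 of 16-week HFD basal (0.0628 and 0.0688), and with the trends removed (0.113).

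Il1r1 and Osmr are also made by endothelial, stellate and immune cells, and the markers of those cells moved in the same comparisons. Over the 5 time points, 11 of 13 tested macrophage and Kupffer markers, 7 of 8 liver endothelial and 5 of 8 stellate markers were higher on the 16-week HFD than on chow, with median log2 differences of 0.73, 0.52 and 0.43. In that comparison 63.0% of all genes were called, 4720 of 14067 higher. The summed endothelial level was 290 to 538 CPM in the 16-week HFD groups of the time course and 249 to 377 CPM in the chow groups. On metformin in the 16-week HFD, 5 of 8 endothelial and 4 of 8 stellate markers were lower than basal (median -0.86 and -0.64) and 0 of 13 macrophage markers were called, beside 28.4% of all genes. The endothelial sum was 198 to 275 CPM on metformin and 290 to 492 CPM basal. In the basal comparison of the 16-week HFD with chow, where Il1r1 differed most, 1 of 8 endothelial (Eng), 1 of 8 stellate (Pdgfrb) and 0 of 13 macrophage markers were called, beside 32.3% of all genes. No marker of these 3 lists was at 0 in all libraries. The part of these cells in the receptor differences was not tested, and in whole liver RNA fewer cells of a type and less RNA per cell cannot be told apart. In the deviations of the 45 libraries from their group means, the gene most correlated with Osmr among all tested genes was Lyve1, a marker of sinusoidal endothelium (Pearson r = 0.87, a description with no test).

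**Figure D2:**
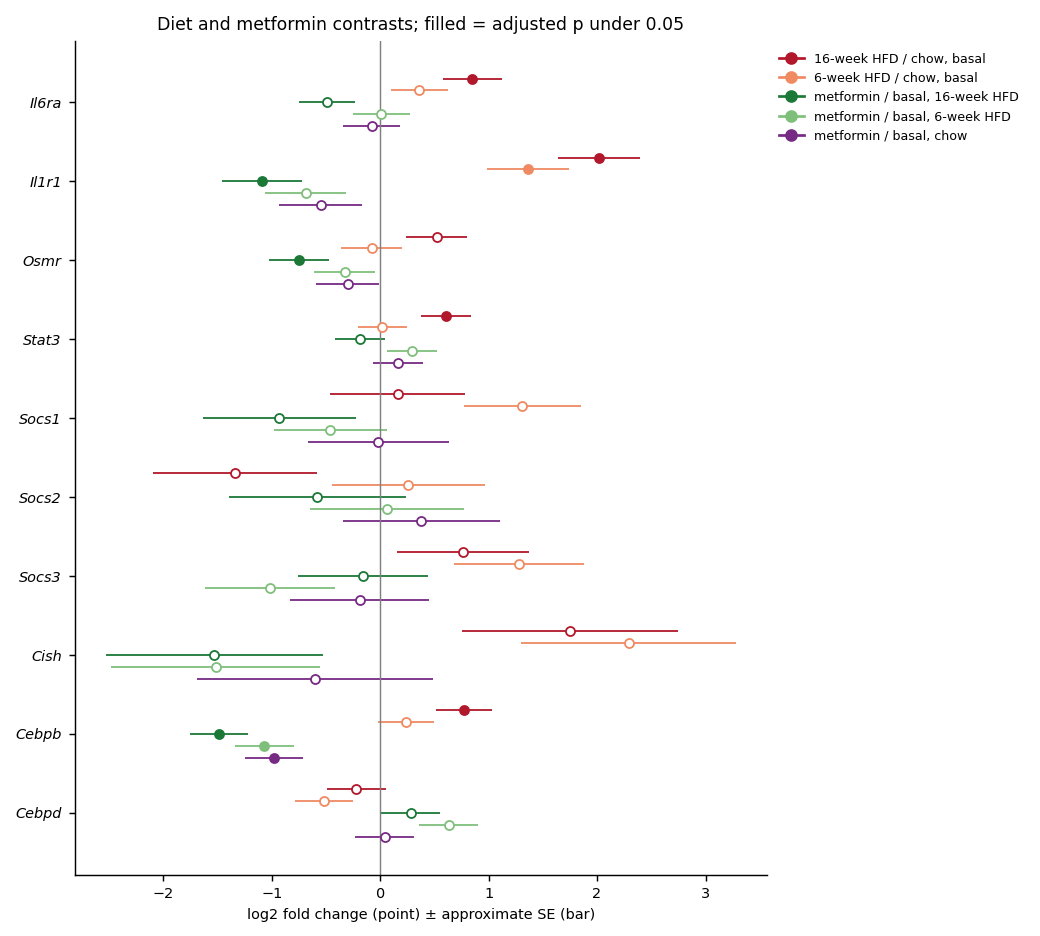
Log2 fold change (points) with its approximate SE (bars) for each of the 10 genes in 2 diet and 3 metformin comparisons, filled where the adjusted p over all genes was under 0.05. Cebpb is filled at -0.98 to -1.49 in all 3 metformin comparisons, and Il1r1 is filled at 2.02 and 1.36 in both diet comparisons.

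Stat3 itself, the transcription factor at the end of this route, moved little. Basal livers had 170, 211 and 115 CPM on the 16-week HFD, 111, 107 and 112 CPM on the 6-week HFD, and 99.6, 93 and 133 CPM on chow. The 16-week and chow ranges overlapped, with a log2 difference of 0.61 ± 0.23 (edgeR, adjusted p = 0.0389). Over the 5 time points the difference was 0.27 ± 0.10 (adjusted p = 0.0172), and with length and GC trends removed it was not called (adjusted p = 0.0673). The basal call was lost without library 1 or 2 of chow (0.116 and 0.153), without library 1 or 2 of the 16-week HFD (0.0805 and 0.255), and under 6 of the other alternatives, among them the fit with no count filter (0.053). At 120 min of insulin on chow the livers had 123, 229 and 197 CPM, against the basal values above, so that 2 of 3 were higher than every basal liver. The log2 difference was 0.75 ± 0.23 (adjusted p = 0.0472), which was lost without library 2 or 3 of the 120 min group (0.274 and 0.169), without library 1 or 2 of the basal group (0.156 and 0.217), with no count filter (0.0585), with the replicate block (0.0582) or with only the groups compared (0.0976). On metformin no difference from basal was called on any diet with all libraries (edgeR, adjusted p between 0.489 and 0.774). The 16-week HFD livers had 91.2, 216 and 129 CPM on metformin. Without library 2 of that metformin group the log2 difference from basal was -0.58 and was called (edgeR, adjusted p = 0.0472), against -0.19 with all libraries.

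Socs3, the inhibitor induced by STAT3 that binds gp130, gave the largest insulin value of the members. At 120 min on chow it was at 9.19, 105 and 35.5 CPM, against 4.78, 5.23 and 8.81 CPM in basal chow livers. All 3 treated livers were above all 3 basal livers, 1 of them only just, and the mean was 49.9 ± 49.5 CPM against 6.27 ± 2.21 CPM (SD, n = 3 each). The log2 difference was 3.0 ± 0.63 (edgeR, adjusted p = 0.0029). It was lost without library 2 of the 120 min group (1.84 to 3.50 over all alternatives; adjusted p = 0.0953 without that library), with only the groups compared in the fit (0.0582) and on the deposited normalized values with limma (0.0603). That library also had the highest Junb of the study (121 CPM, against 30.3 and 61.6 CPM in the other livers of its group). It had the highest Il6 too, at 0.490 CPM, but that gene was near the floor, with at most 10 reads in a library and none in 23 of 45.

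At the earlier times on chow Socs3 stood at 7.05, 29.9 and 15.2 CPM at 15 min, 6.60, 9.18 and 8.78 CPM at 30 min, and 20.8, 10.4 and 9.39 CPM at 60 min. The 60 min values were above the basal range without overlap, but no difference was called (log2 difference 1.49 ± 0.61 at 15 min and 1.13 ± 0.61 at 60 min, edgeR, adjusted p = 0.344 and 0.461). On the 16-week HFD the livers had 6.67, 10.4 and 6.31 CPM at 15 min, 4.47 to 10.5 CPM (median of 6, 7.80) at 30 min, 16.2, 9.10 and 13.6 CPM at 60 min, and 10.5, 11.7 and 7.30 CPM at 120 min, beside a basal range of 5.42 to 14.7 CPM. Every insulin group on that diet overlapped its basal group. The difference of the 120 min response between the 16-week HFD and chow was -3.10 ± 0.86 on the log2 scale and did not pass (adjusted p = 0.068). It passed with DESeq2 (adjusted p = 0.0222) and without library 1 of chow at 120 min (0.0118), and not under the other alternatives. Averaged over the time points Socs3 was not called between the diets (log2 difference -0.58 ± 0.26, adjusted p = 0.052), although 15 of 42 alternatives called it lower on the HFD. Neither diet nor metformin gave a called Socs3 difference in uninjected livers, with 11.3, 14.7 and 5.42 CPM basal on the 16-week HFD and 6.82, 5.35 and 32.8 CPM basal on the 6-week HFD (adjusted p against chow 0.362 and 0.182), and with a mean log2 difference on metformin of -0.46 ± 0.35 (adjusted p = 0.338).

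**Figure D3:**
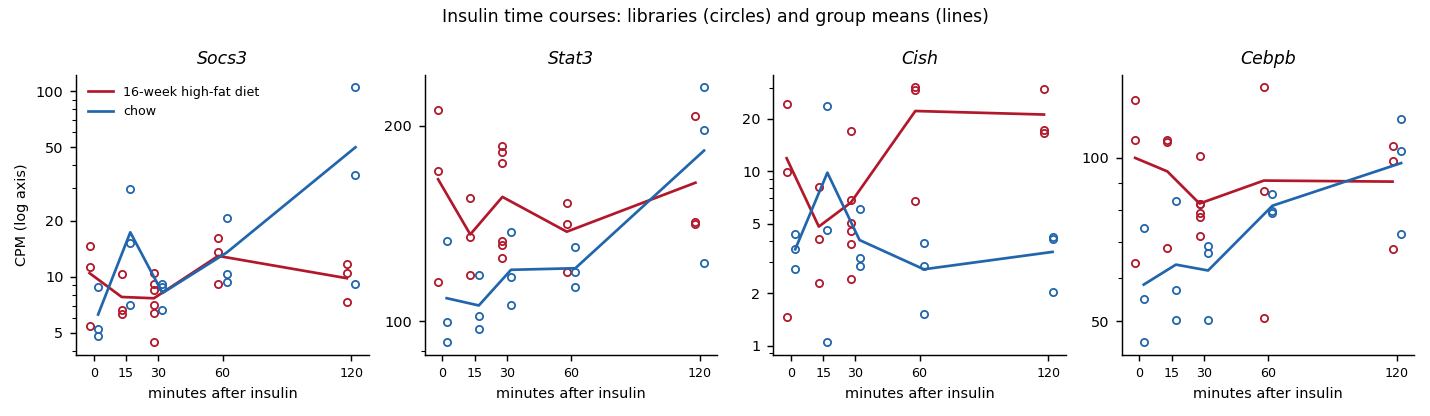
CPM (log axis) of Socs3, Stat3, Cish and Cebpb against minutes after insulin, with each library as a circle and the group means joined by lines, for the 16-week HFD and chow. Socs3 on chow spreads between 9.19 and 105 CPM at 120 min while the 16-week HFD livers stay at 11.7 CPM or below, and Cish at 60 and 120 min is higher in every 16-week HFD liver than in every chow liver.

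Cish and Socs2, both classical targets of growth hormone through STAT5, changed in opposite directions with the 16-week diet. Cish was at 24.3, 9.83 and 1.46 CPM in basal livers of the 16-week HFD and at 2.75, 4.38 and 3.56 CPM in basal chow livers, so the HFD values spanned the chow range. At 60 min of insulin it was at 29.4, 6.73 and 30.3 CPM on the 16-week HFD, against 3.85, 2.84 and 1.52 CPM on chow, and at 120 min at 29.7, 17.2 and 16.5 CPM, against 2.04, 4.11 and 4.18 CPM. At these times the diets did not overlap. At 15 min they did, with 2.28, 4.07 and 8.08 CPM on the 16-week HFD and 1.05, 23.8 and 4.57 CPM on chow, and at 30 min too, with 2.40 to 17.1 CPM (median of 6, 4.80) and 2.87 to 6.04 CPM. The mean over 5 time points was higher on the 16-week HFD by 1.41 ± 0.43 on the log2 scale (edgeR, adjusted p = 0.00515), and this held in all 42 alternatives (between 1.19 and 1.77). In the basal state alone the difference of 1.75 ± 1.00 was not called (adjusted p = 0.182). On metformin Cish was at 1.73, 6.64 and 3.81 CPM on the 16-week HFD, 12.7, 2.37 and 2.97 CPM on the 6-week HFD, and 2.04, 2.42 and 2.46 CPM on chow, and the mean log2 difference from basal over 3 diets, -1.22 ± 0.58, did not pass (adjusted p = 0.111).

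Socs2, which restrains growth hormone receptor signalling, was lower on the same diet. Basal livers had 6.64, 4.24 and 2.34 CPM on the 16-week HFD, against 8.40, 13 and 12.1 CPM on chow, without overlap. The basal log2 difference of -1.34 ± 0.76 did not pass (edgeR, adjusted p = 0.182), and 1 of 14 alternatives called it. After insulin the 16-week HFD livers had 2.32 to 4.40 CPM at 15 min, 2.27 to 7.19 CPM at 30 min, 6.07 to 17.8 CPM at 60 min and 4.86 to 10.9 CPM at 120 min. The chow livers had 2.33 to 27.4 CPM at 15 min, 5.97 to 32.6 CPM at 30 min, 8.71 to 28.6 CPM at 60 min and 6.12 to 15.5 CPM at 120 min, so each of these pairs overlapped. The mean over 5 time points was lower on the 16-week HFD by a log2 difference of -1.25 ± 0.32 (edgeR, adjusted p = 0.00113), called in all 42 alternatives. On metformin the values were 3.18, 3.45 and 2.20 CPM on the 16-week HFD and 10.7, 10.4 and 22.3 CPM on chow, without overlap, and the log2 difference was -2.30 ± 0.80 (adjusted p = 0.0379). That call was lost with the replicate block (0.0538), without library 3 of chow metformin (0.155) and without library 1, 2 or 3 of 16-week HFD metformin (0.107, 0.0574 and 0.0959). On the 6-week HFD the basal livers had 4.89, 3.25 and 31.7 CPM and the metformin livers 26.5, 3.80 and 11.6 CPM, and no comparison with them was called.

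Socs1, induced mainly by interferons, stood between 0.0576 and 1.06 CPM over all libraries, and no comparison called it with all libraries. Its highest group mean was 0.605 ± 0.391 CPM in basal livers of the 6-week HFD (0.386, 0.374 and 1.06 CPM), all above the basal chow livers (0.248, 0.267 and 0.212 CPM). The log2 difference was 1.31 ± 0.54 and did not pass (edgeR, adjusted p = 0.117). Without library 3 of the 6-week HFD metformin group, the mean metformin difference over 3 diets was called at -0.93 (adjusted p = 0.0473), against -0.47 with all libraries (0.34).

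Single libraries carried the highest values of several inhibitors at once. Library 3 of the basal 6-week HFD group had 48.3 CPM of Cish, 31.7 CPM of Socs2, 32.8 CPM of Socs3 and 1.06 CPM of Socs1, while the other libraries of that group had 1.46 and 1.44 CPM of Cish. Library 2 of chow at 15 min had 23.8 CPM of Cish, 27.4 CPM of Socs2 and 29.9 CPM of Socs3, each the highest of its group. To see whether this went beyond 2 livers, the deviation of each library from its group mean was correlated between genes over the 45 libraries, in log2 CPM, for 102 relations chosen after the values had been seen (all 45 pairs of members, Cish with 15 STAT5 and growth hormone targets, and Socs3 with 28 acute phase and 14 immediate STAT3 targets), with 100000 permutations within groups and Benjamini-Hochberg adjustment over the 102. Cish and Socs2 deviated together (Pearson r = 0.82, Spearman rho = 0.79, permutation p = 1e-05 for both, the smallest that could be given, adjusted p = 0.00034 and 0.00051). Without the 2 libraries farthest from the median of Cish deviations or of Socs2 deviations, which are the 2 named above, r was 0.76. Cish and Socs3 gave r = 0.67 and rho = 0.63 (permutation p = 0.00035 and 0.00068, adjusted 0.00229 and 0.0042), and Socs2 and Socs3 r = 0.56 and rho = 0.53 (permutation p = 0.00267 and 0.00292, adjusted 0.0113 and 0.0124). Their r was 0.75 without 2 chow libraries at 120 min and 0.43 without the 2 libraries named above. Cish and Socs2 therefore varied together within groups, and in opposite directions between the diets.

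Among the growth hormone targets, Onecut1 and Bcl6 followed Cish across livers. Onecut1, a hepatocyte transcription factor induced by growth hormone, had r = 0.85 and rho = 0.79 with Cish (permutation p = 5e-05 and 2e-05, adjusted 0.00085 and 0.00051), and r = 0.80 without the 2 farthest libraries. Bcl6, a repressor that growth hormone lowers, had r = -0.69 and rho = -0.64 (permutation p = 0.00014 and 0.00066, adjusted 0.00118 and 0.0042), and r = -0.69 without them. Set against all other tested genes as a description, Foxa2 ranked 1st of the 14066 in its correlation with Cish (r = 0.87). Onecut1 ranked 2nd, Myc 3rd (r = 0.85), Socs2 5th and Socs3 14th, and Bcl6 was the most negative of all. Foxa2 and Myc are not on the list of growth hormone targets. In library 3 of the basal 6-week HFD group Onecut1 was at 24.9 CPM, against 2.37 and 2.36 CPM in the other livers of the group. The other 13 targets, among them Igf1 and Igfals, did not pass in both correlations. Onecut1 and Bcl6 were set beside Cish after their values were seen, which the p-values above do not take into account.

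The promoters of Cish and Socs3 are shown because these genes deviated together and the 9-base palindrome that STAT dimers are known to bind can be read in both. The word searched was TTCNNNGAA, which is its own reverse complement, so that a match on one strand is a match on both. It was found in 2 of the 9 promoters in the RefSeq table for 8 of the members, and in 8.30% of all 32851 promoters of the same length (250 bases before to 50 after the start; build GRCm38.p6). Cish held 2 such words, as did 0.457% of all promoters, starting at bases 1 and 12 of the gene, and Socs3 held 1, starting at base -154, counted back from the gene's first base. Il6ra, Il1r1, Osmr, Stat3, Socs1 and Cebpb held none in this window. The sequences are given on the strand of the gene, with the words in capitals; Cish lies at chr9:107296409-107296708 (plus strand) and Socs3 at chr11:117969317-117969616 (minus strand). A match is a description of letters and not evidence of binding.
Cish: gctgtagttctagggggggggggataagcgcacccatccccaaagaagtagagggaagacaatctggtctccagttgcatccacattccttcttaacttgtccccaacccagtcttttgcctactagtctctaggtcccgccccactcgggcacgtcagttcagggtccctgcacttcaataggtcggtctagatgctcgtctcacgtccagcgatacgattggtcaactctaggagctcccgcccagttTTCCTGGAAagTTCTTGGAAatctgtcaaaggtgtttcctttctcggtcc
Socs3: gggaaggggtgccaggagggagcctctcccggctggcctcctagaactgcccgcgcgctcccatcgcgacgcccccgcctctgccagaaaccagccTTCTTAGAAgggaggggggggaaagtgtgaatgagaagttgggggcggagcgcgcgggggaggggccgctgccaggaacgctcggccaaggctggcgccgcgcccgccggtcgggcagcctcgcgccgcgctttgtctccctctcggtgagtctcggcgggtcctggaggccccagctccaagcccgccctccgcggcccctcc

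**Figure D4:**
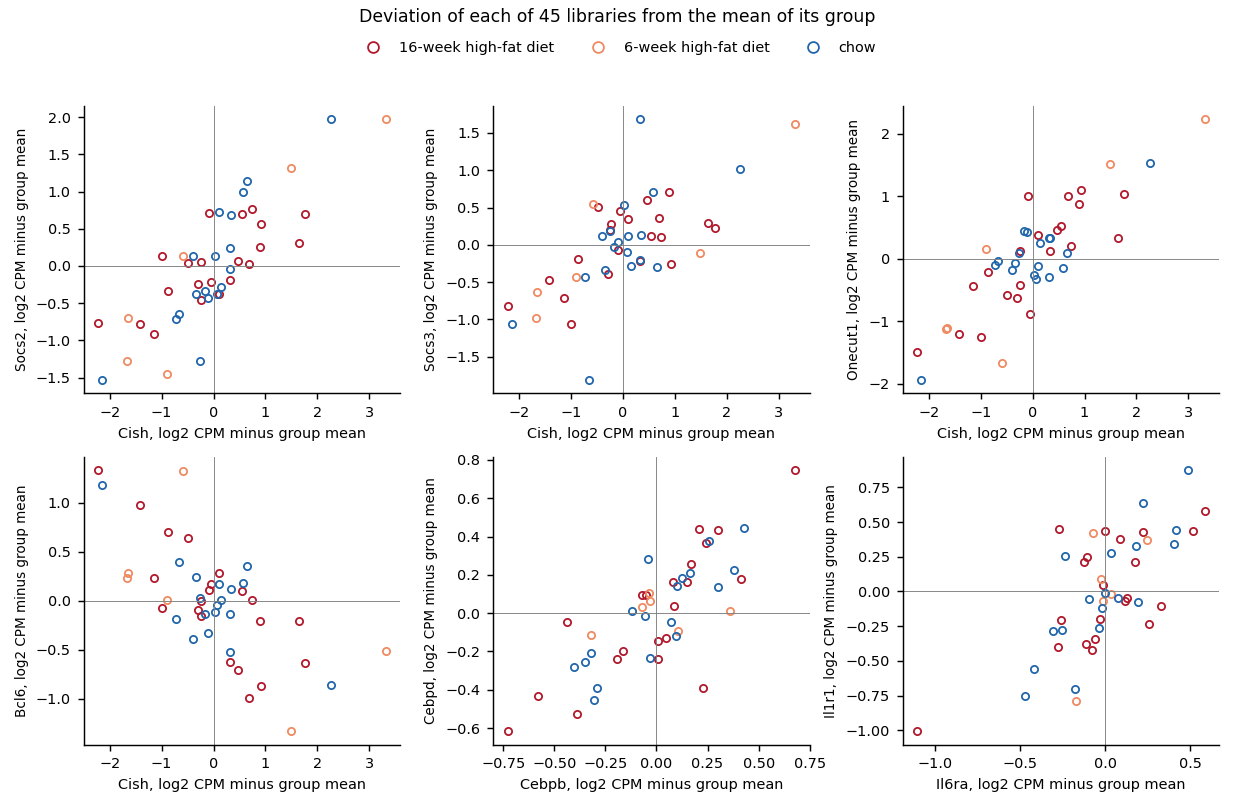
Deviation of each of the 45 libraries from the mean of its group in log2 CPM, for 6 pairs of genes, coloured by diet. Points rise together for Cish with Socs2 (r = 0.82), Socs3 (r = 0.67) and Onecut1 (r = 0.85), for Cebpb with Cebpd (r = 0.79) and for Il6ra with Il1r1 (r = 0.71), and fall for Cish with Bcl6 (r = -0.69).

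Socs3 and Stat3 also deviated together (r = 0.63, rho = 0.60, permutation p = 7e-05 and 0.00022, adjusted 0.000892 and 0.00204, r = 0.54 without the 2 farthest libraries), as did Socs3 and many STAT3 targets. Of the 28 acute phase genes, 16 were positively related to Socs3 with both adjusted values under 0.05, and of the 14 immediate targets 7. The share of all tested genes that would pass the same rule was not computed, so these counts have no background beside them. As a description, Stat3 ranked 40th and Socs2 102nd among all tested genes in their correlation with Socs3. Fga, which encodes a fibrinogen chain, had r = 0.73 and rho = 0.71 (permutation p = 2e-05 and 3e-05, adjusted 0.00051 and 0.000612, r = 0.63 without the 2 farthest libraries), and Nfkbiz, a nuclear regulator of inflammatory genes, had r = 0.76 and rho = 0.70 (permutation p = 3e-05 and 9e-05, adjusted 0.000612 and 0.00131, r = 0.66 without them). These relations are within groups and do not say which condition was higher.

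Cebpb, the C/EBP factor known for acute phase genes and for gluconeogenesis, was the member most clearly lower on metformin. On metformin the livers had 37.5, 37.6 and 31.6 CPM on the 16-week HFD, 31.3, 32.2 and 35.5 CPM on the 6-week HFD, and 22.9, 31.2 and 34.8 CPM on chow. The basal livers had 128, 108 and 64.0 CPM on the 16-week HFD, 87.0, 66.2 and 54.3 CPM on the 6-week HFD, and 74.4, 45.8 and 55.0 CPM on chow. The 9 metformin livers were below all 9 basal livers, whatever the diet. The log2 difference was -1.49 ± 0.27 on the 16-week HFD (edgeR, adjusted p = 0.000161), -1.07 ± 0.27 on the 6-week HFD (0.0205) and -0.98 ± 0.27 on chow (0.0446), with a mean of -1.18 ± 0.15 (7.7e-07). Without library 1 of the 16-week basal and metformin groups the first was -1.30 ± 0.33 (0.00718), and with only the groups compared in the fit it was -1.53 and not called (0.0869). The mean over diets held in all 26 alternatives, between -1.26 and -1.11.

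The single-diet Cebpb calls were less firm, and the diet difference smaller. On chow the call was lost without any 1 of the libraries except library 3 of metformin (adjusted p = 0.21 and 0.149 without library 1 or 2 of metformin, and 0.159, 0.0704 and 0.0954 without library 1, 2 or 3 of basal), with the replicate block (0.0609) and with no count filter (0.0504). On the 6-week HFD it was lost without library 1 of the basal group (0.16) and without library 1, 2 or 3 of metformin (0.0776, 0.0826 and 0.0501). For the 16-week HFD against chow in the basal state Cebpb was higher by 0.77 ± 0.26 (edgeR, adjusted p = 0.0232), with overlapping livers. That call was lost with length and GC trends removed (0.252), with only the groups compared (0.0521), without library 2 or 3 of chow (0.123 and 0.0738) and without library 1 or 2 of the 16-week HFD (0.145 and 0.072). Over the 5 time points the difference was 0.36 ± 0.11 (adjusted p = 0.00698). At 120 min of insulin on chow Cebpb was at 72.5, 118 and 103 CPM, and the log2 difference of 0.74 ± 0.26 from basal did not pass (adjusted p = 0.0973) except without library 1 of the 120 min group (0.0475).

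Cebpd, the partner induced early in the acute phase response, was not called in any metformin comparison in the fit over all groups. On metformin it was at 15.1, 13.9 and 11.8 CPM on the 16-week HFD, 14.4, 14.7 and 13.2 CPM on the 6-week HFD, and 11, 12.1 and 17.1 CPM on chow. Basal livers had 12.4, 13.1 and 8.11 CPM on the 16-week HFD, 9.17, 9.77 and 8.39 CPM on the 6-week HFD, and 15.0, 11.1 and 12.7 CPM on chow. Only on the 6-week HFD did metformin and basal livers not overlap, with metformin higher by 0.63 ± 0.27 (adjusted p = 0.177, and 0.0257 with only the groups compared), and the mean over diets was 0.32 ± 0.16 on the log2 scale (edgeR, adjusted p = 0.119). Over the 5 time points Cebpd was lower on the 16-week HFD than on chow by a log2 difference of -0.35 ± 0.12 (adjusted p = 0.00919), where Cebpb was higher. Within groups both factors nevertheless deviated together (r = 0.79, rho = 0.74, permutation p = 1e-05 and 2e-05, adjusted 0.00034 and 0.00051, and r = 0.72 without the 2 farthest libraries). Of the 45 pairs of members, 7 passed in both correlations; beside those already given they are Il6ra with Il1r1 (r = 0.71, rho = 0.63, permutation p = 0.00036 and 0.0007, adjusted 0.00229 and 0.0042, and r = 0.62 without the 2 farthest libraries) and Il6ra with Cebpd (r = 0.37, rho = 0.48, permutation p = 0.0156 and 0.00517, adjusted 0.0469 and 0.0195, and r = 0.54 without them). All of this carries the shared exon bases of Cebpd named above. As a description, Il1r1 ranked 149th and Cebpd 2019th among all tested genes in their correlation with Il6ra. How many pairs of all genes would pass the same rule was not computed.

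In the basal state of the 16-week HFD, called genes of the pathway around these members went in both directions, in a comparison that called 32.3% of all genes. Other JAK and STAT genes that were higher than on chow included Jak3 by 1.10 ± 0.17, Stat5a by 0.74 ± 0.16 and Tyk2 by 0.44 ± 0.11 on the log2 scale (median of all genes 0.02; edgeR, adjusted p between 1.07e-05 and 0.00282). Of 19 tested receptor chains of the same families 5 were higher and 2 lower, a share near that of all genes. Those lower were Lepr, the leptin receptor, at 4.42 against 36.4 CPM on chow (-3.03 ± 0.73, adjusted p = 0.00158), and Il22ra1, the interleukin-22 receptor, at 4.89 against 15.0 CPM (-1.62 ± 0.28, adjusted p = 3.67e-05). Il1rn, the interleukin-1 receptor antagonist, was higher by 1.06 ± 0.31 (adjusted p = 0.00726). Of 14 tested other inhibitors 3 were higher and 4 lower, with Socs5 at 0.55 ± 0.18 and Socs6 at -0.48 ± 0.09 (adjusted p = 0.019 and 0.000143). Of 5 other C/EBP family genes 2 were higher, Cebpe at 10.0 against 2.42 CPM (2.04 ± 0.26, adjusted p = 4.27e-07) and Cebpa at 419 against 263 CPM (0.67 ± 0.13, adjusted p = 0.000161), and Cebpz was lower.

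Targets of STAT3 and STAT5 gave different counts in that comparison. Of 28 acute phase genes 11 were higher and 1 lower on the 16-week HFD (median 0.25), where 32.3% of all genes were called. Among them were Lcn2, which encodes lipocalin 2, at 71.3 against 4.99 CPM on chow (3.89 ± 0.87, edgeR, adjusted p = 0.000772) and the serum amyloid gene Saa4 at 1040 against 138 CPM (2.91 ± 0.30, adjusted p = 1.92e-08). Of 14 immediate STAT3 targets 1 was higher (Bcl3, 0.69 ± 0.25, adjusted p = 0.0337) and 1 lower (Nnmt, -0.94 ± 0.27, adjusted p = 0.00643). Of 15 STAT5 and growth hormone targets 1 was higher and 7 lower (median -0.89), with Cyp4a12b, a fatty acid hydroxylase, at 14.3 against 171 CPM (-3.58 ± 0.43, adjusted p = 1.99e-07) and Serpina1e at 1010 against 5250 CPM (-2.38 ± 0.75, adjusted p = 0.0144). Over the 5 time points 11 of the 15 were lower and 3 higher (median -1.01, all genes 0.03), where 63.0% of all genes were called, beside a higher Cish and a lower Socs2. On the 6-week HFD 2 of the 28 acute phase genes were called, both higher (Saa4 at 2.00 ± 0.29 and Steap4 at 1.81 ± 0.36, adjusted p = 2.27e-05 and 0.000999), with a list median of 0.01. Gene copies of the Saa and Serpina1 families are near-identical, and their counts are uncertain.

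At 120 min of insulin on chow, where Socs3 and Stat3 were called, 5 of 14 immediate STAT3 targets were higher and none lower (median 0.86, all genes 0.00), where 5.08% of all genes were called. Junb, an AP-1 subunit, was at 71.0 against 12.6 CPM basal (2.49 ± 0.46, edgeR, adjusted p = 0.000784), Zfp36 was higher by 1.13 ± 0.29 (0.0167), Pim3 by 1.06 ± 0.31 (0.0405) and Bcl3 by 0.98 ± 0.25 (0.0163). Of 28 acute phase genes 2 were higher (Saa4 by 1.54 ± 0.29 and Steap4 by 1.30 ± 0.36, adjusted p = 0.00109 and 0.0247), and Tnfrsf1b, a tumour necrosis factor receptor, was the 1 receptor chain of 19 called (1.06 ± 0.19, 0.000784). In libraries 1, 2 and 3 Junb was at 30.3, 121 and 61.6 CPM, Bcl3 at 17.3, 46.5 and 34.0 CPM and Steap4 at 83.3, 205 and 112 CPM. Each was highest in library 2, as was Socs3. Bcl3 of library 1 lay within the basal range of 13.7 to 19.3 CPM, while Junb and Steap4 were above theirs in every library. These calls come from the same livers as that of Socs3 and are not separate support. On the 16-week HFD no gene of these lists was called at 120 min, where no gene was called at all (edgeR; 1176 genes at an unadjusted p under 0.05, and 8 genes with DESeq2). Il6 had no read in 23 of 45 libraries and at most 10 reads, and Il22 had none in any. In the liver tissue their transcripts were therefore at or near the floor of these libraries.

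On metformin in the 16-week HFD, in a comparison that called 28.4% of all genes, Il6st, which encodes gp130, was lower than basal (97.9 against 176 CPM). The log2 difference was -0.84 ± 0.18 (edgeR, adjusted p = 0.000712). Its livers had 54.8, 124 and 115 CPM on metformin and 138, 212 and 178 CPM basal, so library 1 was far below the others on metformin. Lifr, the leukaemia inhibitory factor receptor, had a log2 difference of -0.46 ± 0.16 (adjusted p = 0.0243), beside the lower Il1r1 and Osmr. Without library 1 of both groups 2117 genes were called instead of 3992, and with only the groups compared 11. The list genes named here have no single values from these alternatives. Ifnar2 was the 1 chain of 19 called higher (0.31 ± 0.10, adjusted p = 0.0233). Among JAK and STAT genes Jak3, Tyk2 and Jak1 were lower (-0.76 ± 0.17, -0.31 ± 0.11 and -0.29 ± 0.09, adjusted p = 0.00144, 0.0386 and 0.0177). Of the other inhibitors counted above for the diet comparison, Sh2b3, Socs5 and Pias3 were lower (-0.81 ± 0.15, -0.76 ± 0.19 and -0.45 ± 0.15, adjusted p = 0.00024, 0.00273 and 0.019) and none higher. Whether the JAK and STAT genes or the inhibitors were called more often than the 28.4% of all genes was not tested. These names therefore do not show a fall of the whole pathway. Of 28 acute phase genes 1 was called, lower (Hamp2, a hepcidin gene, -1.11 ± 0.36, adjusted p = 0.021). In the C/EBP family Cebpa, the main hepatocyte member, was lower (-0.47 ± 0.13) and Ddit3, a stress-induced member, higher (0.68 ± 0.25; adjusted p = 0.00752 and 0.0419). For the mean over 3 diets Il6st was at -0.48 ± 0.10 (adjusted p = 0.000628). Hepatocyte markers were higher on metformin on the 16-week HFD, 4 of 6 beside 28.4% of all genes called, with sums of 114000 to 133000 CPM on metformin and 83200 to 103000 CPM basal, and the part of this shift was not tested.

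Across the 14 group means of log2 CPM, the genes most like each member, among those with a mean of at least 5 CPM, are given as a description. Cish was most like Onecut1 (Pearson r = 0.95). Il6ra was most like Fmo5 and Srsf4 (r = 0.97 each), Il1r1 like Rhobtb1 and Mtss1 (0.97 each), Osmr like Akap2 (0.98) and Cebpb like Usp31 (0.95). Epas1, which encodes a hypoxia-inducible factor, was among the top 3 for both Il6ra and Il1r1 (0.96 each). Socs3 was most like Ndel1 and Ripk1 (0.90 each), Stat3 like Sema6b and Cdk11b (0.87 each), Cebpd like 2010012O05Rik and Ddit4 (0.86 each), Socs2 like Smek1 and Dis3 (0.85 each) and Socs1 like Ddhd1 (0.81). Among the members, Il6ra and Il1r1 were the closest pair over the groups (0.95), followed by Il6ra with Osmr (0.82), and Cebpb and Cebpd stood at -0.10.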

How the data were processed

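The labels' protocols describe polyA RNA from pulverized frozen liver, TruSeq version 1 libraries without strand marking and paired Illumina Hi-Seq 2000 reads. Per the submitters' processing notes, the authors used TopHat 1.4.0, HTSeq and DESeq2 1.0.18 with build mm9. The deposited tables hold raw counts per gene, used for every result, and a normalized signal per gene (made with CQN and DESeq2 per the labels' file names), used for 1 alternative as log2(value + 1) with limma.

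Counts of the 45 libraries were joined by gene symbol over the tables of the 3 diets. Genes were filtered with edgeR's filterByExpr (minimum count 10), scaled by TMM and fitted in 1 quasi-likelihood model with a coefficient per group (edgeR 4.0.16, R 4.3.3), and p-values were adjusted by Benjamini-Hochberg over the 14067 genes tested, with 0.05 as threshold. Fold changes use edgeR's prior count of 0.125, and each SE is approximate, taken as log2 fold change over the root of F. Correlations use log2 CPM with a prior count of 2. The fit was also run on simulated counts, whose outcome is not given here and is not used as support. Alternatives used DESeq2 1.42.0 and limma 3.58.1, RLE scaling, no count filter, length and GC trends removed (a GC value was at hand for 98.2% of genes), a replicate block, only the groups compared, and each library left out in turn. No pair of libraries was identical.

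Same-numbered libraries were regarded as possible pairs where all 3 correlations of their deviations were over 0.1, with the pairing taken from the data and not from the labels. That held for metformin against basal on the 6-week HFD (0.41, 0.16 and 0.3) and on the 16-week HFD (0.24, 0.15 and 0.12). The reported tests, these included, used the fit without pairing, and the replicate block was run as an alternative only. Members and gene lists were chosen with earlier results of these data known. The text names all 10 members, up to 4 called genes of a list with the largest change and at least 1 CPM, and the genes most correlated with a member over groups; Onecut1 and Bcl6 beside Cish, and the genes most correlated over libraries, were chosen after their values were seen. One gene of a pathway list is not reported here. Promoters are from RefSeq (GRCm38.p6); entries were at hand for 8 of 10 members, and Socs2 and Cebpd have none in that table.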

Additional observations from a re-analysis of the deposited data

Results flagged for a closer look

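In the group of 6 livers at 30 min of insulin on the 16-week HFD, 1 liver stood far from the other 5 for each of 3 members. Cish was at 17.1 CPM in library 1, against 2.40 to 6.79 CPM in the others. Osmr was at 5.85 CPM in library 5, below the others at 9.24 to 10.6 CPM. Cebpb was at 101 CPM in library 2, above the others at 71.7 to 82.4 CPM. The 3 values are in 3 different libraries, and the gap was judged by Dixon's 95% limit for 6 values, which chance passes in about 1 group of 20. Groups of 3 were not judged this way, so the high Cish, Socs2 and Socs3 of single livers in other groups carry no such mark.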

How the results depend on the processing

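Of the 25 calls of a member over the 24 comparisons, 10 held in every alternative run (Il1r1 and Il6ra for the 16-week HFD against chow, basal; Socs2, Cish, Il6ra, Il1r1, Osmr and Cebpd for the mean of 5 time points; Il1r1 and Cebpb for metformin over 3 diets) and 15 were lost in at least 1, none with a change of sign. The number of members called moved as follows. For the 16-week HFD against chow, basal (4 called), it was 2 with length and GC trends removed, with or without the replicate block. For the 6-week HFD against chow (1) it was 2 with only the groups compared, and for the 16-week against the 6-week HFD (0) it was 1 without library 1 of the 16-week groups. For insulin at 120 min on chow (2) it was 1 with no count filter, 1 on the deposited normalized values, 1 with the replicate block and 0 with only the groups compared, and for its difference by diet (0) 1 with DESeq2. For metformin on chow (1) it was 0 with no count filter and with the replicate block, on the 6-week HFD (1) 2 with only the groups compared, and on the 16-week HFD (3) 1 without library 1 of both groups and 0 with only the groups compared. On metformin, the 6-week HFD against chow (0) gave 1 with trends removed (with or without the replicate block), with DESeq2 and with only the groups compared, and the 16-week HFD against chow (2) gave 1 with the replicate block (with or without trends removed) and with only the groups compared. Leaving out 1 library gave 2 to 4 members for the 16-week and 0 to 1 for the 6-week HFD against chow, 0 to 1 for the 16-week against the 6-week HFD, 0 to 4 for insulin at 120 min on chow and 0 to 1 for its difference by diet, 0 to 1, 0 to 1 and 1 to 5 for metformin on chow, the 6-week and the 16-week HFD, and 1 to 2 for the 16-week HFD against chow on metformin. The cause of these shifts was not tested. Over the mean of 5 time points Cebpb was lost (adjusted p = 0.0578) with the replicate block and trends removed together, as was Stat3 (0.0531). For metformin over 3 diets Cish and Socs1 were called lower only without library 1 (0.0475) or 3 (0.0473) of the 6-week HFD metformin group.

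Counts of all genes called varied more. Over the alternatives other than leaving out a single library, they ran from 715 to 1794 for the 16-week against the 6-week HFD (1436 as reported; the 1794 is without library 1 of the 16-week groups, and 1724 is the highest with whole groups), 129 to 253, 7 to 63, 122 to 300 and 591 to 961 for insulin on chow at 15, 30, 60 and 120 min (159, 10, 195 and 714), and 0 to 4, 0 to 1744, 0 to 21 and 0 to 8 on the 16-week HFD (0, 500, 1 and 0). The 1744 came from libraries 1 to 3 alone at 30 min, and the highest with all 6 was 984. They ran from 1 to 12, 0 to 111, 0 to 83 and 81 to 316 for the difference of the insulin response by diet (1, 0, 0 and 118), from 195 to 472, 237 to 708, 11 to 4417 and 2808 to 4557 for metformin on chow, the 6-week HFD, the 16-week HFD and their mean (273, 446, 3992 and 4393), and from 1 to 15 and 0 to 1126 for its difference by diet (6 and 698). For the diets under metformin they ran from 412 to 888 (6-week, 623) and 251 to 3176 (16-week, 2871). The reported metformin tests were not paired. On the 6-week and 16-week HFD, where same-numbered libraries deviated together, the replicate block changed no member call for metformin other than that of Il6ra. Elsewhere libraries share only a number. Socs1, at 1 to 52 reads per library, had the fewest reads of the members.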
